A study of Mus musculus with 12 samples.

Results

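The genes of major histocompatibility complex (MHC) class II antigen presentation were followed across 4 sorted mouse blood cell populations on 12 arrays. The 6 genes H2-Aa, H2-Ab1, H2-Eb1, Cd74, H2-DMa and Ciita were chosen by name, and all 6 were measured among 18193 genes. Each was read from its brightest probe set, the array feature that reports a gene, among those annotated to that gene alone. The 6 genes had 14 such probe sets, and all of them are described.

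The populations were splenic CD4+ T cells (2 arrays), and PreMegE cells (4 arrays), multipotent progenitors (MPP, 3 arrays) and haematopoietic stem cells (HSC, 3 arrays) of bone marrow. All came from C57Bl/6 mice aged 10 to 12 weeks, with no treatment or genetic change named. T cells were sorted as CD4+ without CD8, B220 or NK1.1. PreMegE cells, progenitors of the megakaryocyte and erythroid lines, were Kit+ CD150+ cells lacking lineage markers, Sca1, CD105 and CD41. MPP were Kit+ Sca1+ Flt3+ cells without lineage markers or CD150, and HSC the Kit+ Sca1+ CD150+ cells without lineage markers or Flt3. The HSC and MPP arrays were made for this study and those of the other populations came from 2 earlier studies, so study and population cannot be told apart in any comparison that joins them. The HSC and MPP samples were separate sorts. Whether different animals gave the replicates is not stated in the sources used here, so p-values cover only the variation among these samples, which may be technical.

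MHC class II molecules carry peptides from endosomes to the cell surface, where they are read by CD4+ T cells. An alpha and a beta chain pair in the endoplasmic reticulum with the invariant chain Cd74, which blocks the groove and steers the complex to endosomes. There Cd74 is cut away by proteases, and H2-DM exchanges its last fragment for peptide. Ciita is the coactivator that switches on this gene set, and professional antigen-presenting cells such as B cells, dendritic cells and macrophages are its best known users. Mouse T cells, unlike activated human ones, are known to make little class II of their own.

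The array intensities were taken to log2, and levels are log2 intensities. Differences are log2 differences ± SE from 1 limma model over all 12 arrays, and a gene was called at a Benjamini-Hochberg adjusted p under 0.05 over all genes. Levels of different genes were not set against each other, because probe sets differ in brightness. Lower quartiles over all genes were 3.27 to 3.35 per population, and a mean below that may not lie above background. A mean above it does not show detection either. H2-Ea, which C57BL mice are known not to express, was at 5.66 to 6.58 in the 12 arrays. Cd4, Kit and Flt3 followed the sorts. Cd4 averaged 9.30 in CD4+ T cells and 4.76 to 4.89 in the marrow populations, Kit 3.46 in CD4+ T cells and 9.97 to 10.58 in marrow, and Flt3 10.02 in MPP and 5.73 to 6.60 elsewhere. Transcripts of CD105 and CD41, which were gated out of PreMegE, averaged more there than in MPP. Eng (CD105) averaged 8.11 in PreMegE, 7.74 in MPP and 7.92 in HSC, and Itga2b (CD41) 8.45 in PreMegE, 7.82 in MPP and 10.54 in HSC. Against HSC, Itga2b was called lower in PreMegE (-2.09, adjusted p = 2.04e-07). HSC replicates 2 and 3 stood apart at the X-inactivation transcript Xist, with 2.45 and 2.59 against 12.04 in HSC replicate 1 and 10.91 or more in the other 9 arrays. Eif2s3y and Kdm5d, genes of the Y chromosome, were at 7.46 and 6.02 in HSC replicate 2 and at 8.47 and 5.68 in replicate 3. In every other array both were at 2.76 or less. HSC replicates 2 and 3 thus read as male and the rest as female, so sex was not balanced between HSC and the other populations. Results that rest on HSC were therefore also computed without these 2 arrays, which leaves 1 HSC array, assumed to vary like the other groups.

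The chain genes lie on chromosome 17, in the order H2-Oa, H2-DMa, H2-DMb2, H2-DMb1, H2-Ob, H2-Ab1, H2-Aa, H2-Eb1, H2-Eb2 and H2-Ea, and Ciita is on chromosome 16. Class II promoters are known for an X box, bound by the RFX complex, followed by a Y box, bound by NF-Y, on which Ciita assembles. A search of RefSeq promoter windows (assembly GRCm38.p6, 250 bases before to 50 after each start) used the letters ATTGG for the Y box core and GNAAC, 20 to 35 bases before it, for the start of the X box. Of 11 class II genes looked up, 8 had a window and 6 of these held the pair. Over all 32851 windows, 2.67% held it on either strand, but the spacing and the letters of the X box were set after the class II windows had been seen, so the comparison is no test. ATTGG alone was in 37.4% of windows. These stretches are shown because they come from 2 classical genes, H2-Aa and H2-Eb1, and from 2 genes that differed from them across the populations, H2-Oa and H2-Ob. Capitals mark GNAAC and ATTGG, and each is written on the strand of its gene.
H2-Aa, chr17:34287852-34287924, minus strand: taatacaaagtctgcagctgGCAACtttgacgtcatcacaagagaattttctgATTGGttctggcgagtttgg
H2-Eb1, chr17:34305756-34305827, plus strand: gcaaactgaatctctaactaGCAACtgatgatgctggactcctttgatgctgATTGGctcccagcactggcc
H2-Oa, chr17:34092283-34092355, plus strand: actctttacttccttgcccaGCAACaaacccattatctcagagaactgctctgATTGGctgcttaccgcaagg
H2-Ob, chr17:34238798-34238867, plus strand: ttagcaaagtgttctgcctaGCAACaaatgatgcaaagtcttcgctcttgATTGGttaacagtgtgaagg
In all 4 the X box letters read GCAAC. They began 81 bases before the annotated start in H2-Aa, 91 in H2-Eb1, 76 in H2-Oa and 87 in H2-Ob. Between the marked letters lay 28 bases in H2-Aa, 27 in H2-Eb1, 28 in H2-Oa and 25 in H2-Ob. H2-DMb1 and H2-Eb2 held the pair too, while H2-DMb2 and 1 of the 2 windows of H2-DMa held ATTGG without GNAAC at that spacing, and the other H2-DMa window held no ATTGG. A match of letters describes a window and says nothing of whether a factor was bound in these cells.

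The chains that form the peptide groove came first. H2-Aa, the alpha chain of I-A, was at 11.07 and 10.65 in CD4+ T cells, at 6.23, 5.72, 5.79 and 5.88 in PreMegE, at 8.64, 8.69 and 8.74 in MPP and at 8.94, 10.20 and 9.40 in HSC. No array of any population overlapped with those of another. The order was therefore CD4+ T cells, HSC, MPP and PreMegE. H2-Ab1, the beta chain of I-A, was at 9.08 and 7.97 in CD4+ T cells, at 6.13, 6.17, 6.47 and 6.53 in PreMegE, at 7.87, 7.76 and 7.86 in MPP and at 7.32, 7.86 and 7.004 in HSC. PreMegE arrays lay below and both T cell arrays above all others, and MPP overlapped with HSC. H2-Eb1, the beta chain of I-E, was at 9.48 and 8.72 in CD4+ T cells, at 4.76, 4.85, 4.73 and 4.37 in PreMegE, at 5.99, 6.14 and 6.61 in MPP and at 6.16, 6.87 and 6.07 in HSC. Both T cell arrays lay above and all PreMegE arrays below the rest, and MPP and HSC overlapped.

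Cd74, the invariant chain, whose gene is on chromosome 18, was at 8.89 and 8.14 in CD4+ T cells, at 4.45, 4.07, 4.33 and 4.17 in PreMegE, at 5.93, 6.11 and 6.01 in MPP and at 5.38, 5.90 and 5.47 in HSC. Its 4 populations did not overlap, in the order CD4+ T cells, MPP, HSC and PreMegE. H2-DMa, the alpha chain of the peptide exchanger H2-DM, was at 8.60 and 8.18 in CD4+ T cells, at 8.39, 8.25, 8.63 and 8.41 in PreMegE, at 9.31, 9.21 and 9.60 in MPP and at 8.67, 8.43 and 8.18 in HSC. MPP stood above every other array, and the other 3 populations overlapped. Ciita was at 3.996 and 4.023 in CD4+ T cells, at 3.34, 3.44, 3.05 and 3.07 in PreMegE, at 3.49, 3.61 and 3.59 in MPP and at 3.52, 3.56 and 3.54 in HSC. Its T cell arrays were the highest and its PreMegE arrays the lowest, with a PreMegE mean of 3.22 under the lower quartile of 3.32 over all genes there.

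**Figure D1:**
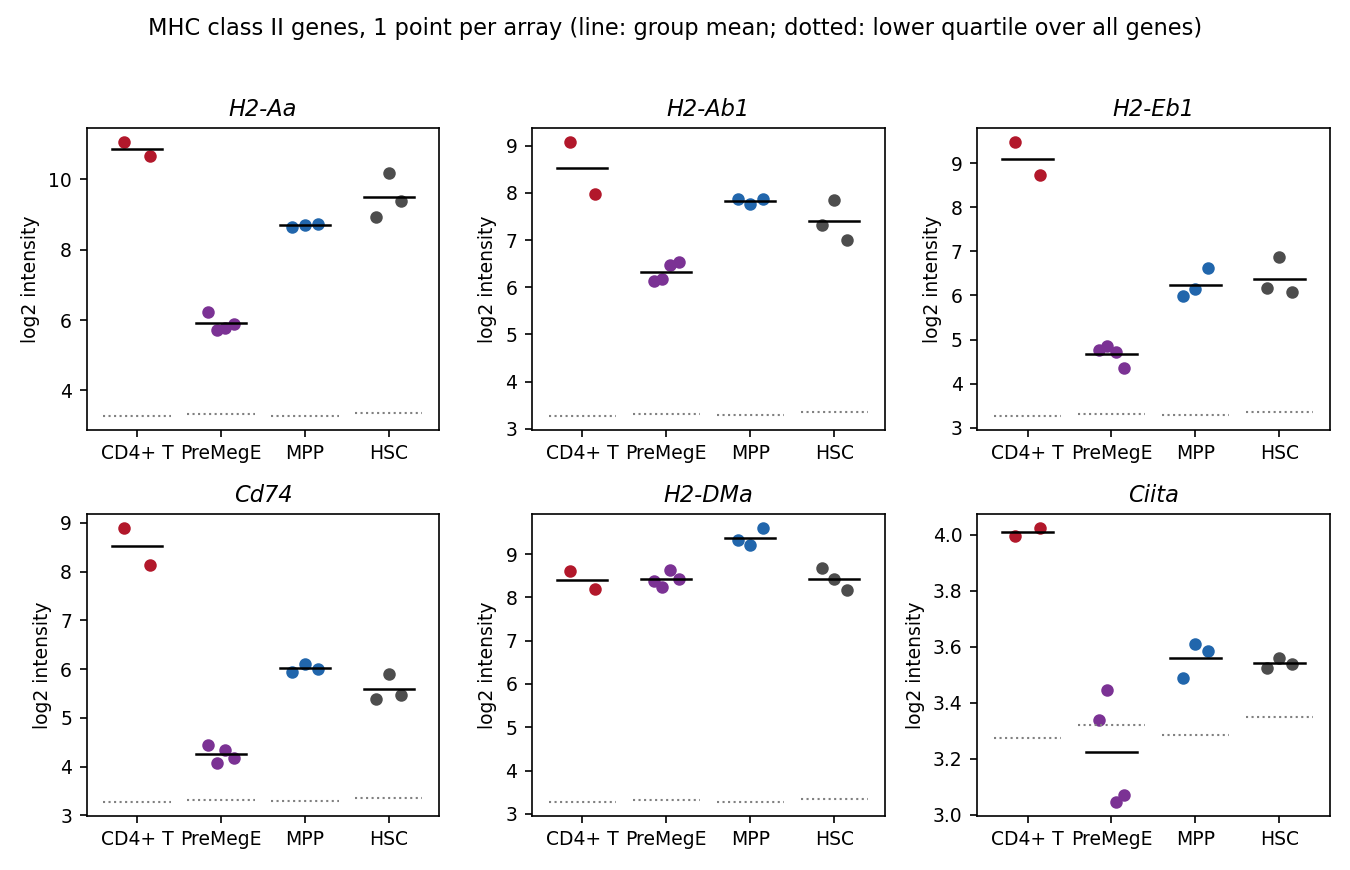
Log2 intensity of the 6 MHC class II genes in CD4+ T cells (2 arrays), PreMegE (4), MPP (3) and HSC (3), with 1 point per array, a line at each group mean and a dotted line at the lower quartile over all genes; each gene has its own vertical scale. H2-Aa, H2-Ab1, H2-Eb1 and Cd74 were lowest in all 4 PreMegE arrays, H2-DMa was highest in the 3 MPP arrays, and Ciita stayed between 3.05 and 4.02.

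PreMegE cells had far less of the groove chains and of the invariant chain than HSC, and in bulk RNA fewer cells expressing a gene and less RNA per cell cannot be told apart. H2-Aa was 12.2-fold lower in PreMegE at its brightest probe set (-3.61 ± 0.23, adjusted p = 2.17e-08). Its other probe sets gave smaller differences, of -2.41, -0.93 and -1.24. H2-Eb1 fell by 1.69 ± 0.23 on the log2 scale (adjusted p = 4.24e-05), Cd74 by 1.33 ± 0.19 (adjusted p = 5.34e-05) and H2-Ab1 by 1.07 ± 0.24 (adjusted p = 0.00287). Thus 4 of the 6 genes were lower in PreMegE than in HSC and 0 higher, where 17% of all genes were called lower, 11.9% higher and 28.9% in either direction. H2-DMa differed by -0.01 ± 0.17 (adjusted p = 0.986) and Ciita by -0.32 (adjusted p = 0.0992), and neither was called. The median difference of the 6 genes was -1.20, beside -0.01 over all genes. The 4 calls held in each of the 24 alternatives, with HSC replicates 2 and 3 left out among them.

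Against MPP the same 4 genes and H2-DMa were lower in PreMegE, so that 5 of 6 were called lower and 0 higher, where 19.5% of all genes were lower, 13.5% higher and 33% called in all. H2-Aa was lower by 6.91-fold (-2.79, adjusted p = 1.86e-07), and Cd74 by 3.40-fold (-1.76, adjusted p = 2.22e-06). The other H2-Aa probe sets gave -1.56, -0.61 and -0.63. The differences were -1.57 for H2-Eb1 (adjusted p = 6.4e-05) and -1.51 for H2-Ab1 (adjusted p = 0.000131). H2-DMa fell by 0.95 ± 0.17 (adjusted p = 0.000315). Ciita differed by -0.34 (adjusted p = 0.0707) and was called in 3 of 24 alternatives. Both PreMegE comparisons share the PreMegE arrays.

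Between MPP and HSC, sorted in the same study, the class II genes did not move in 1 direction. H2-DMa was higher in MPP by 0.95 ± 0.18 (adjusted p = 0.00225), and H2-Aa was lower there by 0.82 ± 0.25 on the log2 scale (adjusted p = 0.0455). This made 1 gene higher and 1 lower of 6, where 6.38% of all genes were higher, 4.93% lower and 11.3% called in all. Cd74 differed by 0.43 ± 0.20 with no overlap of arrays (adjusted p = 0.205), H2-Ab1 by 0.44 ± 0.25 (adjusted p = 0.352), H2-Eb1 by -0.12 ± 0.25 (adjusted p = 0.846) and Ciita by 0.02 (adjusted p = 0.963). The call of H2-Aa was lost in 14 of 24 alternatives. Without HSC replicate 2 its difference was -0.48 (adjusted p = 0.205), and without HSC replicates 2 and 3 it was -0.25 (adjusted p = 0.761). H2-DMa kept its call in every alternative other than the last, in which it differed by 0.70 (adjusted p = 0.156) with 1 HSC array in the fit.

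HSC replicate 2 was the highest HSC array for all 4 of H2-Aa, H2-Ab1, H2-Eb1 and Cd74, by 0.31 to 0.68 above the HSC mean. The same array had 9.04 for Ighm, the heavy chain of IgM, against 5.04 and 4.71 in HSC replicates 1 and 3. It was also the highest HSC array for Csf1r, the macrophage growth factor receptor, at 7.77 against 6.15 and 6.81, and for the complement gene C1qc, at 5.26 against 3.38 and 4.72. The part of these values in the class II levels of that array was not tested.

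**Figure D2:**
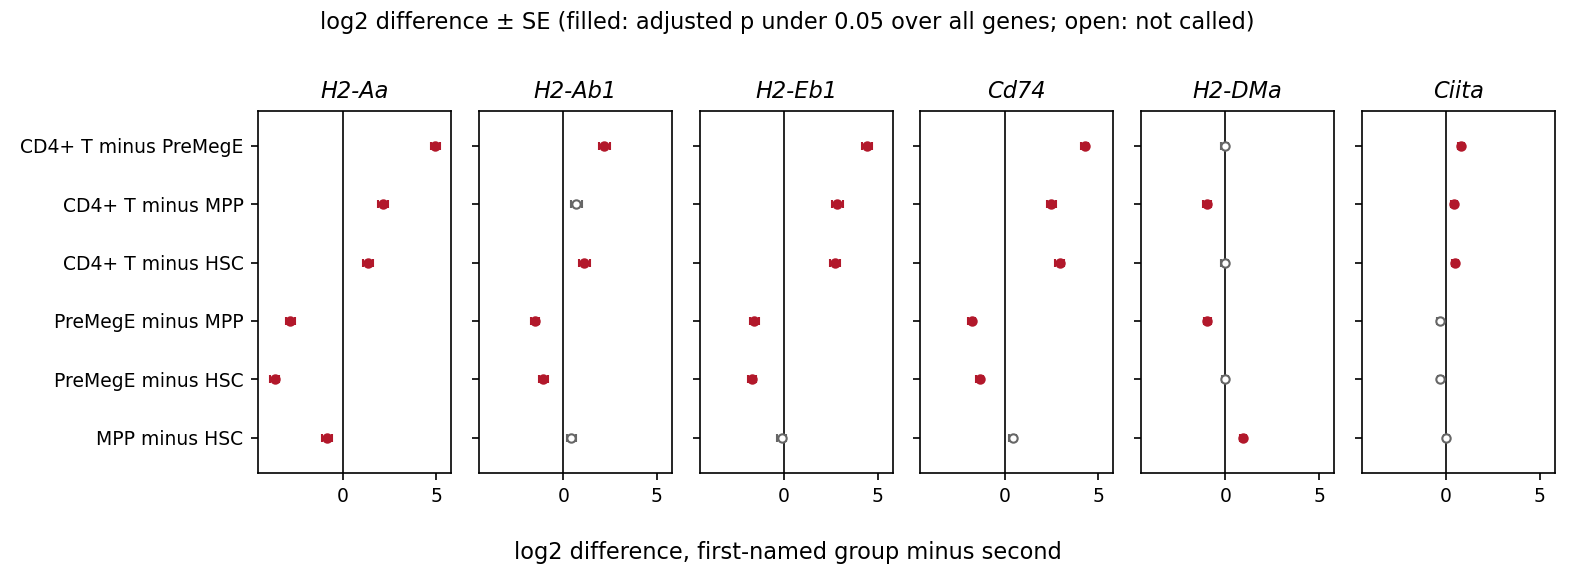
Log2 differences ± SE (horizontal axis, first-named group minus second) of the 6 MHC class II genes in the 6 comparisons; filled points have an adjusted p under 0.05 over all genes and open points do not. H2-Aa, H2-Ab1, H2-Eb1 and Cd74 lie right of 0 for CD4+ T cells and left of 0 for PreMegE against both stem and progenitor populations, whereas H2-DMa departs from 0 where MPP is compared.

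CD4+ T cell samples had the highest mean level of 5 of the 6 genes at their brightest probe sets, while H2-DMa was highest in MPP. Against PreMegE, H2-Aa was 31.07-fold higher in CD4+ T cells (4.96 ± 0.26, adjusted p = 4.81e-10), Cd74 19.19-fold (4.26, adjusted p = 1.98e-10) and H2-Eb1 by 4.42 on the log2 scale (adjusted p = 1.57e-09). The other H2-Aa probe sets gave 4.25, 3.21 and 2.55. H2-Ab1 was higher by 2.20 (adjusted p = 7.76e-06) and Ciita by 0.78 ± 0.15 (adjusted p = 0.000714). H2-DMa differed by -0.03 (adjusted p = 0.941). In all, 5 of 6 were higher and 0 lower, where 16.3% of all genes were higher, 16.8% lower and 33.1% called in either direction.

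Against HSC, 5 of 6 were again higher in CD4+ T cells and 0 lower, where 17% of all genes were higher, 20.8% lower and 37.8% called in all. Cd74 was higher by 2.93 ± 0.22 (adjusted p = 3.24e-08), H2-Eb1 by 2.73 ± 0.28 (adjusted p = 8.61e-07), H2-Aa by 1.35 ± 0.28 (adjusted p = 0.00101), H2-Ab1 by 1.13 ± 0.28 (adjusted p = 0.00463) and Ciita by 0.47 ± 0.16 (adjusted p = 0.0313), a call lost in 10 of 24 alternatives. H2-DMa differed by -0.03 (adjusted p = 0.922). CD4+ T cell replicate 1 exceeded replicate 2 at all 4 classical genes, and without it H2-Ab1 differed by 0.58 (adjusted p = 0.141) and 3 genes were called.

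Against MPP, 4 of 6 were higher in CD4+ T cells and H2-DMa was lower, where 15.5% of all genes were higher, 20% lower and 35.5% called in all. H2-Eb1 was higher by 2.85 (adjusted p = 5.63e-07), Cd74 by 2.50 (adjusted p = 2.21e-07), H2-Aa by 2.17 (adjusted p = 1.24e-05) and Ciita by 0.45 (adjusted p = 0.0414). The call of Ciita was lost in 11 of 24 alternatives, the replicate block among them (0.41, adjusted p = 0.0774), and its next brightest probe set gave -0.11 (adjusted p = 0.717). H2-DMa fell by 0.98 ± 0.20 on the log2 scale (adjusted p = 0.000918). H2-Ab1 differed by 0.69 ± 0.28 and was not called (adjusted p = 0.0726), although both T cell arrays, at 9.08 and 7.97, lay above the MPP arrays. Without CD4+ T cell replicate 2 it was called, at 1.25 (adjusted p = 0.00313), and without replicate 1 its difference was 0.14 (adjusted p = 0.78). The 3 T cell comparisons share the 2 T cell arrays.

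Markers of B cells were higher along with the class II genes in the T cell samples. Those of dendritic cells and monocytes were more often higher than lower against PreMegE and HSC, and mixed against MPP. Of 14 B cell markers measured, 8 were higher in CD4+ T cells than in HSC and 1 lower, 7 higher than in MPP and 0 lower, and 8 higher than in PreMegE and 0 lower. Over all genes 17% were higher than in HSC, 15.5% than in MPP and 16.3% than in PreMegE. Cd79b, a chain of the B cell receptor, was at 7.12 and 7.14 in CD4+ T cells, at 4.86 to 5.25 in PreMegE, at 5.99 to 6.17 in MPP and at 5.54 to 5.87 in HSC. Ms4a1, which encodes the B cell surface protein CD20, was at 6.45 and 6.76 in CD4+ T cells and at 3.42 or less in every marrow array. Ighm was at 12.28 and 12.49 in CD4+ T cells, at 9.94 to 10.73 in MPP, at 9.35 in PreMegE replicate 1 and 3.57 to 4.36 in the other PreMegE arrays. The summed intensity of the 14 markers was 5577 and 6410 in CD4+ T cells, 241.8 to 936.4 in PreMegE, 1262 to 1965 in MPP and 282.1 to 910.3 in HSC. Without Ighm it was 601.6 and 640.8 in CD4+ T cells, 221.3 to 285.2 in PreMegE, 272.5 to 302.4 in MPP and 249.1 to 385 in HSC, where replicate 2 held the 385.

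The B cell transcription factors did not share this rise. Ebf1 was at 2.85 and 2.76 in CD4+ T cells, below the lower quartile of 3.27 over all genes and alone among the 14 markers in that, and Pax5 was at 3.46 and 3.37 there against 3.41 to 4.30 in the marrow arrays. The sort had gated out B220, a surface protein of B cells. PreMegE replicate 1, with its Ighm of 9.35, had levels of H2-Aa, H2-Ab1, H2-Eb1 and Cd74 that lay -0.20 to 0.32 from the PreMegE means. The mean centred log2 level of these genes was -1.52 there, the highest in PreMegE, and -1.71 to -1.58 in the other PreMegE arrays. Of 12 monocyte and macrophage markers, 7 were higher in CD4+ T cells than in PreMegE and 0 lower, among them Csf1r by 2.75 ± 0.34 (adjusted p = 8.54e-06) and C1qc by 1.98 ± 0.34 (adjusted p = 0.00025). Against MPP 3 were higher and 2 lower, and against HSC 5 higher and 1 lower. Their summed intensity was 626.5 and 692.3 in CD4+ T cells, 209.6 to 245.5 in PreMegE, 855.4 to 892 in MPP and 460.1 to 632.3 in HSC. Of 10 dendritic cell markers, 4 were higher and 1 lower in CD4+ T cells than in PreMegE, 2 higher and 2 lower than in MPP, and 3 higher and 1 lower than in HSC. Over all genes 16.3% were higher and 16.8% lower than in PreMegE, 15.5% and 20% than in MPP, and 17% and 20.8% than in HSC. The sums of the dendritic markers were 493 and 507.9 in CD4+ T cells, 350.7 to 526.6 in PreMegE, 646.6 to 740.4 in MPP and 481.9 to 559.2 in HSC. Both T cell sums lay below the MPP range for both of these lists, and within the PreMegE and HSC ranges for the dendritic list. Sums weigh bright genes most, such as Tcf4 of the dendritic list, at 5.32 and 5.94 in CD4+ T cells and 8.36 to 8.67 in MPP. The median log2 level of each list was instead higher in both CD4+ T cell arrays than in MPP. It was 4.43 and 4.40 against 4.03 to 4.19 for the dendritic list, and 4.49 and 4.43 against 3.82 to 4.07 for the monocyte list. The part of other cells in the class II levels of these samples was not tested.

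**Figure D3:**
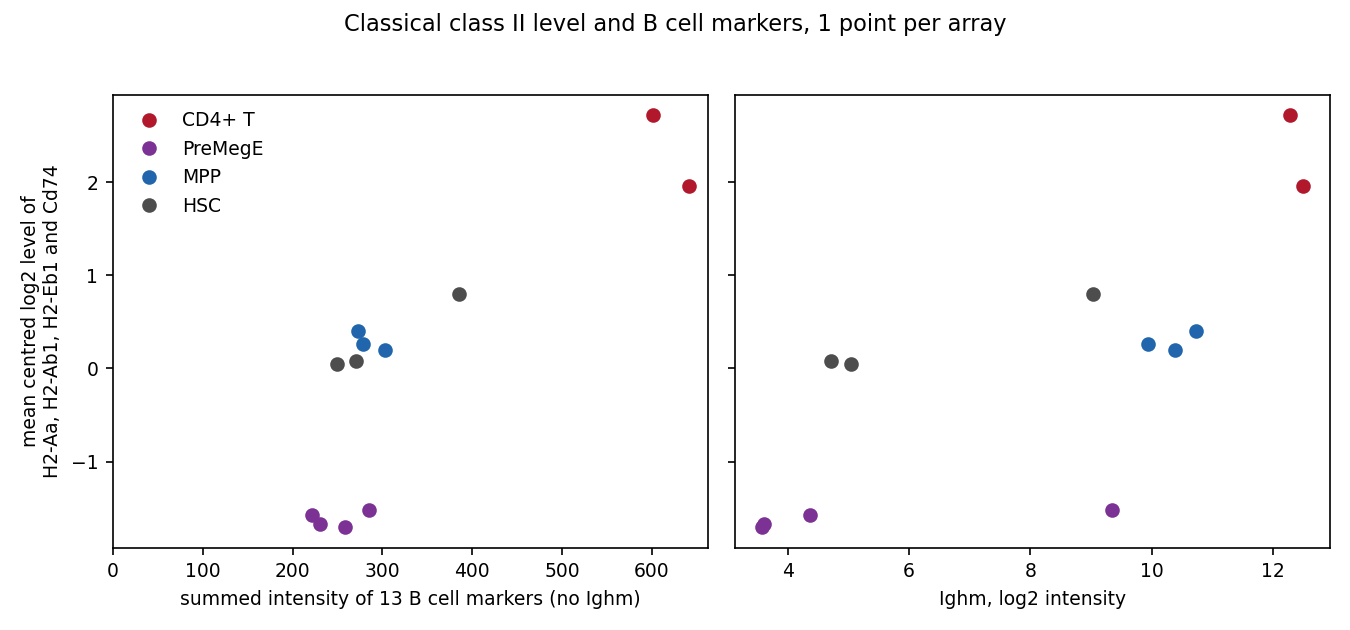
Mean of the centred log2 levels of H2-Aa, H2-Ab1, H2-Eb1 and Cd74 (vertical axis) against the summed intensity of 13 B cell markers without Ighm (left) and against the log2 intensity of Ighm (right), with 1 point per array. Both CD4+ T cell arrays are highest on all axes, and HSC replicate 2 is the HSC array highest on all of them. The PreMegE array with Ighm at 9.35 is the highest PreMegE array on the vertical axis, at -1.52 against -1.71 to -1.58.

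The further probe sets gave the same order of populations for the groove chains at the extremes. In all 4 probe sets of H2-Aa and all 3 of H2-Ab1, CD4+ T cells had the highest and PreMegE the lowest group mean. Fitted on their own with adjustment over all probe sets, 9 of the 14 were lower in PreMegE than in HSC and 0 higher. In CD4+ T cells, 10 of the 14 were higher than in HSC and 1 lower. No share of all probe sets called in this fit is given, so these counts are descriptive only. They also weigh genes by their number of probe sets, with 4 of the 14 from H2-Aa and 3 from H2-Ab1. The brightest probe sets of H2-Aa and H2-Ab1 carry the _x_at and _s_at suffixes, which mark possible binding of other transcripts. H2-Eb1 and Cd74 have a single probe set each, without these 2 suffixes. The second H2-Ab1 probe set was higher in MPP than in HSC by 1.00 ± 0.22 (adjusted p = 0.0125), which the brightest was not.

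H2-DMa and Ciita depended on the probe set. At the second H2-DMa probe set CD4+ T cells, with 4.81 and 4.71, lay below PreMegE (5.64 to 6.23), MPP (6.41 to 6.61) and HSC (5.79 to 6.06). There CD4+ T cells were lower than HSC by 1.17 ± 0.18 on the log2 scale (adjusted p = 0.000187), where the brightest probe set had shown -0.03. The higher level in MPP than in HSC was called at both H2-DMa probe sets, at 0.95 and 0.59 (adjusted p = 0.00483 and 0.0405). For Ciita, neither of the other 2 probe sets was called in any comparison, and the second gave -0.12 for CD4+ T cells against HSC (adjusted p = 0.638). Their values ran from 2.40 to 3.48 over the 12 arrays.

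**Figure D4:**
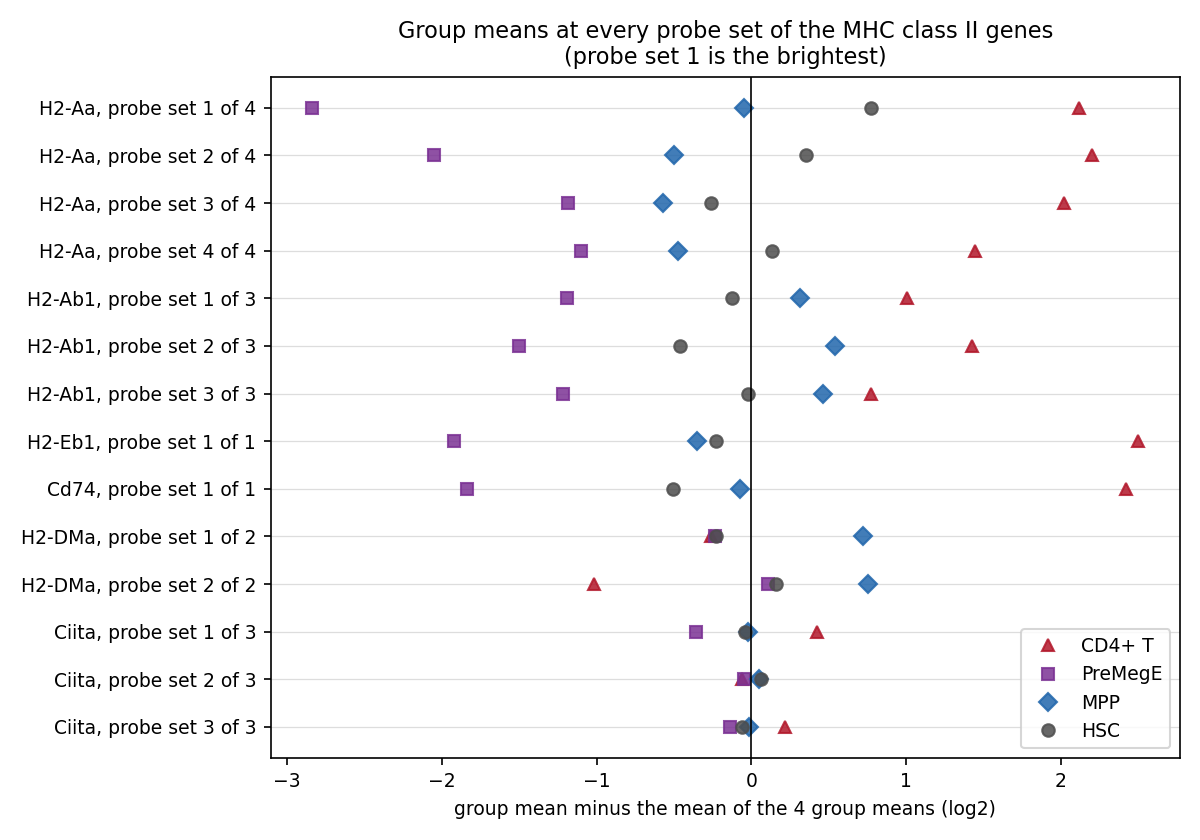
Group means at each of the 14 probe sets of the 6 genes, as the log2 difference from the mean of the 4 group means; rows run from the brightest to the dimmest probe set of each gene. CD4+ T cells are rightmost and PreMegE leftmost at every probe set of H2-Aa, H2-Ab1, H2-Eb1 and Cd74, MPP are rightmost at both of H2-DMa, and the populations lie close together at the other 2 of Ciita.

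Among 14 other genes of class II chains and peptide loading, the nonclassical pair H2-Oa and H2-Ob had another order of populations than the classical genes. Together they encode H2-O, an inhibitor of H2-DM. H2-Ob was at 8.28 and 7.91 in CD4+ T cells, at 8.77, 8.65, 8.93 and 8.62 in PreMegE, at 9.16, 9.36 and 9.27 in MPP and at 6.92, 7.26 and 6.996 in HSC. HSC had the lowest and MPP the highest arrays, and no populations overlapped. H2-Oa was at 6.16 and 6.58 in CD4+ T cells, at 7.53, 7.33, 7.60 and 6.84 in PreMegE, at 6.57, 6.52 and 6.40 in MPP and at 5.81, 5.92 and 5.72 in HSC. PreMegE arrays were the highest and HSC arrays the lowest.

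Where PreMegE had less H2-Aa, H2-Ab1, H2-Eb1 and Cd74 than HSC, it had more of both H2-O genes, by 1.68 ± 0.15 for H2-Ob (adjusted p = 5.38e-07) and 1.51 ± 0.18 for H2-Oa (adjusted p = 1.14e-05). Both of these calls held in every alternative run, although each gene has 1 probe set, so the alternatives with other probe sets reused its values. In MPP, H2-Ob was higher than in HSC by 2.20 ± 0.16 (adjusted p = 2.42e-07). H2-Oa was higher in MPP by 0.68 ± 0.19 (adjusted p = 0.031), which was no longer called when any 1 of the 6 HSC and MPP arrays was left out, nor without HSC replicates 2 and 3 (0.69, adjusted p = 0.256). Against PreMegE, CD4+ T cells were lower at H2-Oa by 0.96 ± 0.20 (adjusted p = 0.00137) and at H2-Ob by 0.64 ± 0.17 on the log2 scale (adjusted p = 0.00646). The H2-Ob call ended without CD4+ T cell replicate 2 (-0.46, adjusted p = 0.127). Against HSC, H2-Ob was higher in CD4+ T cells by 1.04 ± 0.18 (adjusted p = 0.000178), the direction of the classical genes.

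The alpha chain of I-E, H2-Ea, which C57BL mice are known not to express because of a promoter deletion, was at 6.43 and 6.15 in CD4+ T cells, at 6.08 to 6.58 in PreMegE, at 5.66 to 5.91 in MPP and at 5.93 to 6.41 in HSC. Its only call was between PreMegE and MPP (0.61, adjusted p = 0.00914), and its next brightest probe set gave 0.05 there (adjusted p = 0.841). H2-Eb2 was at 4.89 and 4.81 in CD4+ T cells and at 3.92 to 4.56 in the marrow arrays. It was higher in CD4+ T cells than in PreMegE by 0.72 ± 0.19 (adjusted p = 0.00674), a call that ended without CD4+ T cell replicate 1 (0.68, adjusted p = 0.0533). H2-DMb2, the other beta chain of H2-DM on a probe set of its own, was not called at its brightest probe set in any of the 6 comparisons (CD4+ T cells against PreMegE 0.63, adjusted p = 0.0587). Its other 2 probe sets were both called higher in CD4+ T cells than in PreMegE, by 0.68 and 0.74 (adjusted p = 0.00476 and 0.0162 over all probe sets). In that comparison 7 of 24 alternatives gave a call, the next brightest probe set among them. H2-DMb1 was not analysed here, because its probe sets also name other genes.

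Cathepsin S (Ctss), the protease that trims Cd74 in antigen-presenting cells, spanned the widest range of the 14 genes. It was at 12.19 and 12.24 in CD4+ T cells, at 5.12, 4.85, 5.69 and 4.67 in PreMegE, at 10.27, 10.16 and 9.98 in MPP and at 7.82, 9.15 and 8.80 in HSC. The 4 populations did not overlap, with PreMegE lowest as for Cd74. Ctss was lower in PreMegE than in HSC by 3.50 ± 0.27 on the log2 scale (adjusted p = 1.75e-07) and higher in MPP than in HSC by 1.55 ± 0.29 (adjusted p = 0.00241). Other genes of the pathway were set apart in CD4+ T cells. Cd83, which is known to keep class II at the surface, was at 7.84 and 8.002 in CD4+ T cells and at 2.67 to 3.56 in marrow, where PreMegE and HSC means lay under the lower quartile. Ifi30, a thiol reductase of endosomes, was at 9.03 and 8.76 in CD4+ T cells and at 5.92 to 6.97 in marrow, and the endopeptidase Lgmn at 5.51 and 5.28 in CD4+ T cells and at 2.61 to 4.12 in marrow.

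Marchf8, a ubiquitin ligase known to act on surface proteins that include class II, ran the other way, at 3.33 and 5.18 in CD4+ T cells and 6.62 to 7.503 in marrow. It was lower in CD4+ T cells than in HSC by 3.19 ± 0.35 on the log2 scale (adjusted p = 2.46e-06). Over the whole list of 14, CD4+ T cells had 7 genes higher and 3 lower than PreMegE, 6 higher and 3 lower than MPP, and 7 higher and 1 lower than HSC. PreMegE had 2 higher and 6 lower than MPP, and 2 higher and 4 lower than HSC, while MPP had 5 higher and 0 lower than HSC. Of all genes, CD4+ T cells had 16.3% higher and 16.8% lower than PreMegE, 15.5% and 20% than MPP, and 17% and 20.8% than HSC. PreMegE had 13.5% of all genes higher and 19.5% lower than MPP, and 11.9% and 17% than HSC. MPP had 6.38% higher and 4.93% lower than HSC. The list's median difference between MPP and HSC was 0.40, beside -0.03 over all genes.

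**Figure D5:**
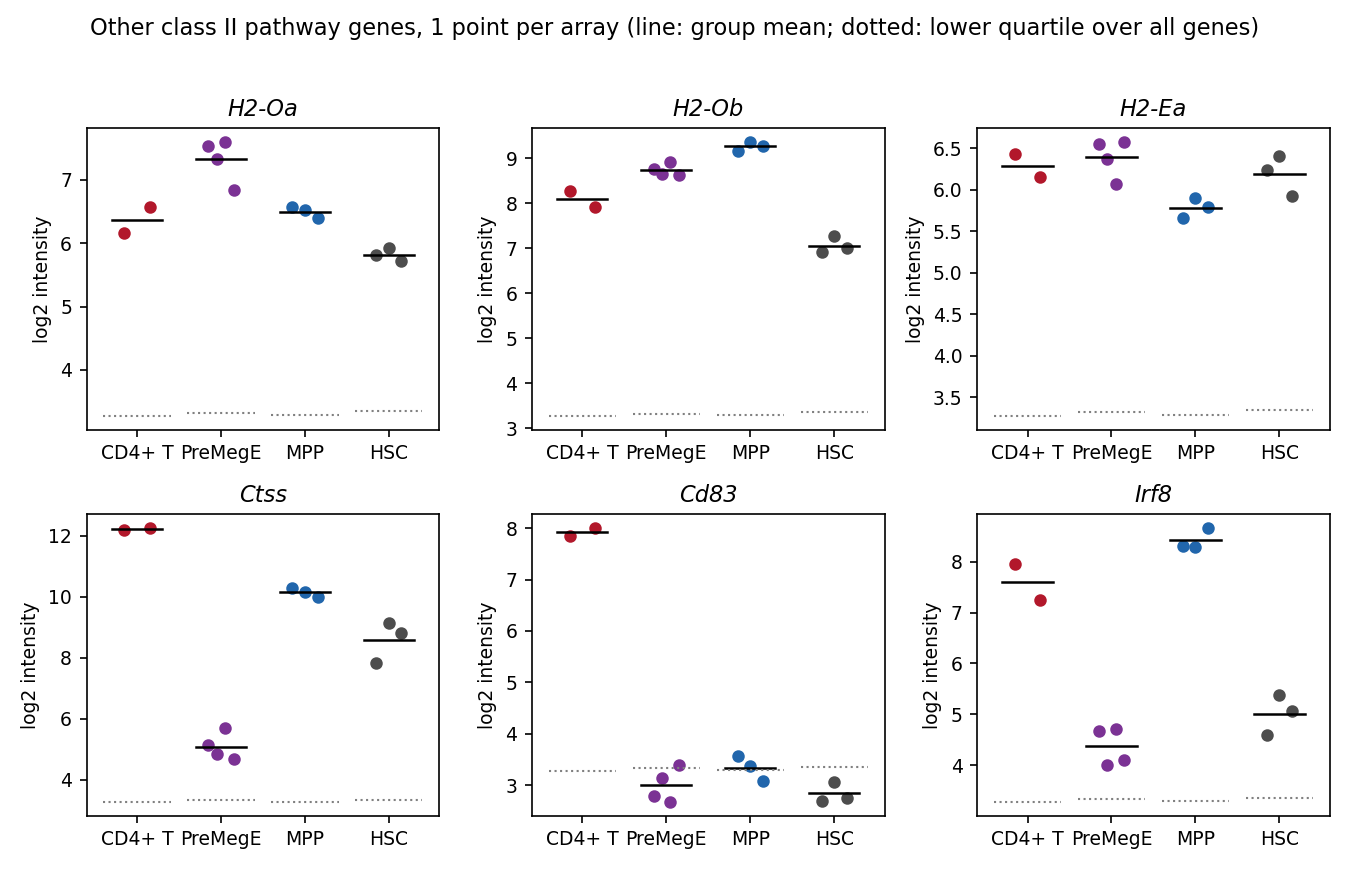
Log2 intensity of H2-Oa, H2-Ob, H2-Ea, Ctss, Cd83 and Irf8 in CD4+ T cells (2 arrays), PreMegE (4), MPP (3) and HSC (3), drawn as 1 point per array with group means as lines and the lower quartile over all genes dotted. HSC have the lowest H2-Oa and H2-Ob, PreMegE the lowest Ctss, with 4.67 to 5.69, and MPP the highest Irf8, with 8.29 to 8.66.

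The factors known to act at class II promoters did not follow the classical genes as a group. Rfx5, the DNA-binding subunit of the RFX complex, was at 8.65 and 8.39 in CD4+ T cells, at 9.59 to 10.13 in PreMegE, at 10.14 to 10.47 in MPP and at 10.32 to 10.86 in HSC. CD4+ T cells, with the highest mean levels of the classical genes and Cd74, had the lowest Rfx5, by 2.02 ± 0.20 on the log2 scale against HSC (adjusted p = 8.33e-07). Rfxank, another RFX subunit, was higher in CD4+ T cells than in HSC by 2.49 ± 0.19 (adjusted p = 4.14e-08), where its next brightest probe set gave 0.18 (adjusted p = 0.567). Rfxap, the remaining subunit, was higher by 1.19 ± 0.21 (adjusted p = 0.000231), and its other probe set gave a lower level in CD4+ T cells, at -1.13 (adjusted p = 0.00794). No direction is therefore given for Rfxap. Nfya, a subunit of NF-Y, was lower in CD4+ T cells than in HSC by 1.87 ± 0.31 on the log2 scale (adjusted p = 0.000143), and its next brightest probe set gave -0.39 (adjusted p = 0.123).

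Irf8, an interferon regulatory factor of the lymphoid, monocyte and dendritic lines, was at 7.95 and 7.24 in CD4+ T cells, at 4.67, 3.998, 4.71 and 4.10 in PreMegE, at 8.32, 8.29 and 8.66 in MPP and at 4.59, 5.37 and 5.07 in HSC. It was higher in MPP than in HSC by 3.41 ± 0.25 (adjusted p = 3.3e-07), while Ciita differed by 0.02 ± 0.14 between them (adjusted p = 0.963). Irf1, which mediates the interferon gamma response of Ciita, was at 10.59 and 10.55 in CD4+ T cells, at 8.40 to 8.62 in PreMegE, at 10.13 to 10.39 in MPP and at 9.29 to 9.66 in HSC. PreMegE arrays were the lowest, and the level was lower than in HSC by 0.99 ± 0.14 on the log2 scale (adjusted p = 5.3e-05). Ifngr1, the ligand-binding chain of the interferon gamma receptor, was instead higher in PreMegE than in HSC by 1.53 ± 0.15 (adjusted p = 2.09e-06). Ifngr2, the other chain of that receptor, was lower in PreMegE (-0.68 ± 0.17, adjusted p = 0.00637). Spi1 (PU.1) was higher in MPP than in HSC by 1.04 ± 0.21 (adjusted p = 0.0041), but not once HSC replicates 2 and 3 were left out (0.71, adjusted p = 0.237). Of 17 regulators measured, CD4+ T cells had 9 higher and 5 lower than PreMegE, 6 higher and 4 lower than MPP, and 9 higher and 4 lower than HSC. PreMegE had 2 higher and 7 lower than MPP, and 4 higher and 3 lower than HSC, while MPP had 5 higher and 0 lower than HSC. Of all genes, CD4+ T cells had 16.3% higher and 16.8% lower than PreMegE, 15.5% and 20% than MPP, and 17% and 20.8% than HSC. PreMegE had 13.5% of all genes higher and 19.5% lower than MPP, and 11.9% and 17% than HSC. MPP had 6.38% higher and 4.93% lower than HSC.

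Genes of class I presentation, the pathway for peptides from the cytosol, were also mostly lower in PreMegE. Of 14 genes, 9 were lower and 3 higher in PreMegE than in HSC, where 17% of all genes were lower and 11.9% higher. Against MPP, 10 were lower and 1 higher in PreMegE, where 19.5% of all genes were lower and 13.5% higher. The immunoproteasome subunit Psmb8 was at 8.64 to 9.01 in PreMegE, at 10.71 to 10.89 in MPP and at 10.11 to 10.17 in HSC. It was lower in PreMegE than in HSC by 1.32 ± 0.14 on the log2 scale (adjusted p = 3.86e-06), where its next brightest probe set gave -0.19 (adjusted p = 0.598). The peptide transporter subunit Tap2 was lower there by 1.06 ± 0.19 (adjusted p = 0.000482). CD4+ T cells had 11 of the 14 higher and 1 lower than PreMegE, 6 higher and 3 lower than MPP, and 9 higher and 2 lower than HSC, while MPP had 3 higher and 0 lower than HSC. Of all genes, CD4+ T cells had 16.3% higher and 16.8% lower than PreMegE, 15.5% and 20% than MPP, and 17% and 20.8% than HSC. MPP had 6.38% of all genes higher and 4.93% lower than HSC.

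The likeness of other genes to the class II pattern was described by Pearson's r over the 12 arrays with the mean centred level of H2-Aa, H2-Ab1, H2-Eb1 and Cd74. The arrays share populations and studies, so no p is given. The 4 genes themselves had r of 0.95 to 0.98 with their mean, Ciita 0.91 and H2-DMa 0.12. The 6 class II genes, clone names and gene models were then left out. Among the 2329 remaining genes whose group means spanned at least 2 on the log2 scale, the 5 most alike were Nab2 (r = 0.98), Inpp1 (0.98), Tspyl4 (0.98), Spata13 (0.98) and Tmem62 (0.97). Spata13, for example, averaged 9.85 in CD4+ T cells, 5.58 in PreMegE, 7.76 in MPP and 8.05 in HSC. Nab2 averaged 6.66 in CD4+ T cells, 3.83 in PreMegE, 5.20 in MPP and 5.11 in HSC, and HSC replicate 2 was again the highest HSC array, at 5.61 against 4.87 and 4.85.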

How the data were processed

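Total RNA of 12 sorted samples had been hybridised to Affymetrix arrays. The authors deposited an RMA intensity for each probe set, per the submitters' processing notes. The RMA version, and whether arrays of the 3 studies were normalised jointly, are not given in the sources used here. Array medians of 14.4 to 15.6 show a linear scale, so log2 was taken. Values were not normalised again, and low ones were kept. For arrays, their number limits the precision.

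Of 45101 probe sets, the 64 controls were left out, and names came from the platform annotation (34945 probe sets with 1 symbol, 932 with several, 9160 with none). RefSeq gene IDs matched 34741 of the 34945 and changed 0 symbols. The brightest single-symbol probe set over 12 arrays stood for each of 18193 genes. Groups and replicate numbers came from the sample titles. PreMegE replicate 4 carries the number 3 in its description, so replicates 3 and 4 were averaged as an alternative. A single lmFit with a mean per group and eBayes (limma 3.58.1, R 4.3.3, version 1.17.8 of data.table) gave two-sided tests, adjusted by Benjamini-Hochberg over all genes. The fit was tested on simulated data with 200 changed genes. No 2 arrays shared more than 68 of 45101 values, and replicates correlated at 0.984 to 0.994 across genes. Figures were drawn with matplotlib 3.10.9.

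Named genes were all 6 class II genes, any gene of the class II and regulator lists, up to 4 called genes with the largest change from the class I and marker lists, and the 5 genes of most like pattern. Levels of Pax5, Ebf1, Cd79b and the sort markers were given as defining markers. Values of C1qc, C1qb, Csf1r, Cd68, Lyz2 and Ighm in HSC replicate 2 were chosen after they were seen. The genes and lists were chosen with earlier results of these data known. Alternatives were quantile and loess normalisation, other probe sets, 16 added before log2, the lowest genes left out, trended robust eBayes, only the 2 groups compared, a replicate block and each array left out. Genes with 1 probe set, such as H2-Eb1, Cd74, H2-Oa and H2-Ob, kept their values under other probe sets, so these alternatives did not check them. Leaving out HSC replicates 2 and 3 and fitting each probe set on its own were added after the data had been seen.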

Additional observations from a re-analysis of the deposited data

Results flagged for a closer look

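Spi1 in PreMegE replicate 2, at 5.32, lay apart from the other 3 PreMegE arrays, at 5.61 to 5.65, with a gap of 0.89 of the whole range. It was 1 of 51 groups of 4 arrays looked at, and chance flags about 1 in 20.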

How the results depend on the processing

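Of 864 values for the 6 class II genes under the alternatives, 813 kept their side of the threshold, 35 lost a call, 13 gained 1 and 3 reversed. Called values among the 813 also kept their direction. A change of sign in a value that was never called was not counted, as for H2-Eb1 between MPP and HSC (-0.31 to 0.13). The reversed values were those of Ciita's next brightest probe set, at -0.1241 for CD4+ T cells against HSC, -0.1057 against MPP and -0.0097 against PreMegE. Ciita's call in CD4+ T cells ended in 10 of 24 alternatives against HSC and in 11 against MPP. Between MPP and HSC, 2 class II genes were called, and 1 when probe sets were averaged, with 16 added, only those arrays, PreMegE replicates 3 and 4 averaged, a replicate block or each probe set on its own. Without HSC replicates 2 and 3 this was 0 in limma, and Cd74 and H2-DMa were the 2 with an unadjusted p under 0.05 (all genes: 779 called against MPP and 3395 against PreMegE, where all arrays gave 2058 and 5255). Leaving out 1 array gave 1 to 2 class II genes and 1280 to 2341 genes in all between MPP and HSC, the 1280 without MPP replicate 3, and 3 to 5 class II genes in CD4+ T cells against HSC. Same-numbered arrays deviated together at r over 0.1 in 3 of 15 pairs (-0.12 to 0.41). The main fit did not pair samples by number, but deviations from means of so few arrays cannot exclude a pairing. The block gave 2153 genes between MPP and HSC and 4 class II genes in CD4+ T cells against HSC. Calls of MPP against HSC were 56.4% higher, 44.4% after quantile and 46.8% after loess normalisation. Of 30 other named genes, 8 of 4320 values reversed by the same rule. Rfxap's other probe set gave -1.1299, -1.4357 and -1.164 for CD4+ T cells against HSC, MPP and PreMegE, and the mean of its probe sets -0.3575 against MPP and -0.0176 against PreMegE. Rfxank in PreMegE against MPP was -0.6265 with the next probe set and -0.3513 with the mean, and Irf8 in CD4+ T cells against MPP 0.403 with the next probe set. Beyond the limits these settings state, the cause was not tested. Genes under the lower quartile over all genes, Ciita in PreMegE among them, may not lie above background, and the 2 T cell arrays borrow their spread from the other groups.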
